A study of Mus musculus with 6 samples.

Results

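The cytosolic ribosome of mouse embryonic stem (ES) cells is described here through the array probes of its protein genes, in wild type cells and in cells labelled as Zscan5b knockout. Members were chosen by the gene name printed for each probe: names of the form Rps or Rpl followed by a number and an optional a, x or y, the stalk genes Rplp0 to Rplp2, and Rpsa. This gave 178 probes of 76 genes, among 39429 gene probes under 30222 names on the array, with 66 probes of 30 genes for the small subunit and 112 probes of 46 genes for the large subunit. The series held 3 arrays of wild type ES cells and 3 of the knockout, all hybridised in 1 colour with Cy3-labelled copies of total RNA. Cells of both groups were kept with leukemia inhibitory factor on a feeder layer of mitomycin C-inactivated mouse embryonic fibroblasts, so both groups could carry feeder RNA. The labels call the arrays biological replicates but do not say whether the knockout cells were 1 clone, how the deletion was made or which bases it removed. They also do not say whether the RNA came from separate cultures, so the p-values measure the spread between these samples only. The deleted gene, Zscan5b, belongs to the SCAN family of zinc-finger genes.

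The cytosolic ribosome joins a small subunit, which reads the messenger RNA, to a large subunit, which forms the peptide bond. Its proteins are made in near-equal numbers, assembled with ribosomal RNA in the nucleolus and, when in excess, degraded, so their genes are usually expressed at high and coordinated levels. Their messengers typically begin with a run of pyrimidines, the terminal oligopyrimidine tract, through which growth signals control their translation. ES cells divide fast and depend on a steady supply of ribosomes.

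Levels are log2 probe signals relative to the 75th percentile of the same array, and a fold change is the knockout mean minus the wild type mean on that log2 scale. Each gene was represented by the brightest of its tested probes, and p-values come from limma with Benjamini-Hochberg adjustment over the 26649 probes tested. The arrays had between 25371 and 27754 probes well above background, and none was saturated. The Zscan5b probe read -3.66, -4.03 and -3.12 in the wild type and -4.47, -5.17 and -5.13 in the knockout, a log2 difference of -1.32 ± 0.29 (SE, n = 3 per group, limma adjusted p = 0.107). The groups did not overlap for that probe, but it was dim, and whether it lies inside the deleted part is not stated. Each group was hybridised on a slide of its own and scanned in a single scan, so slide and genotype cannot be told apart. All 10 ES cell markers, Pou5f1 and Sox2 among them, were tested, with a summed signal of 460.3 to 510.6 times the 75th percentile in the wild type and 457.6 to 490.4 times in the knockout. Dppa5a, the brightest of these probes, gave 0.01, while Pou5f1 gave -0.47 with a limma adjusted p of 0.104 and Nanog 0.66 with 0.175. All 20 feeder fibroblast markers were also tested, with a summed signal of 203.6 to 354.8 in the wild type and 189.8 to 236 in the knockout and a median log2 fold change of -0.85. With all arrays 0 of the 20 passed the adjusted test, against 0.465% of all tested probes, and without wild type replicate 1 that median was -1.32. At an unadjusted limma p under 0.05, 16 of the 20 were lower in that fit, against 20.5% of all tested probes in either direction.

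No ribosomal protein gene passed the test. None of the 76 genes and none of their 177 tested probes reached a limma adjusted p under 0.05, against 124 probes or 0.465% over the whole array (0.124% higher and 0.341% lower in the knockout). The smallest adjusted p was 0.149 among the representative probes and 0.134 among all member probes. The point estimates nevertheless lay almost entirely on one side. All 30 small subunit genes and 44 of 46 large subunit genes had a log2 fold change below 0, while 51.4% of all tested probes did. The median was -0.11 over the small subunit, with a range of -0.23 to -0.01, and -0.14 over the large subunit, with a range of -0.34 to 0.02. The median over all tested probes was -0.01.

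**Figure D1:**
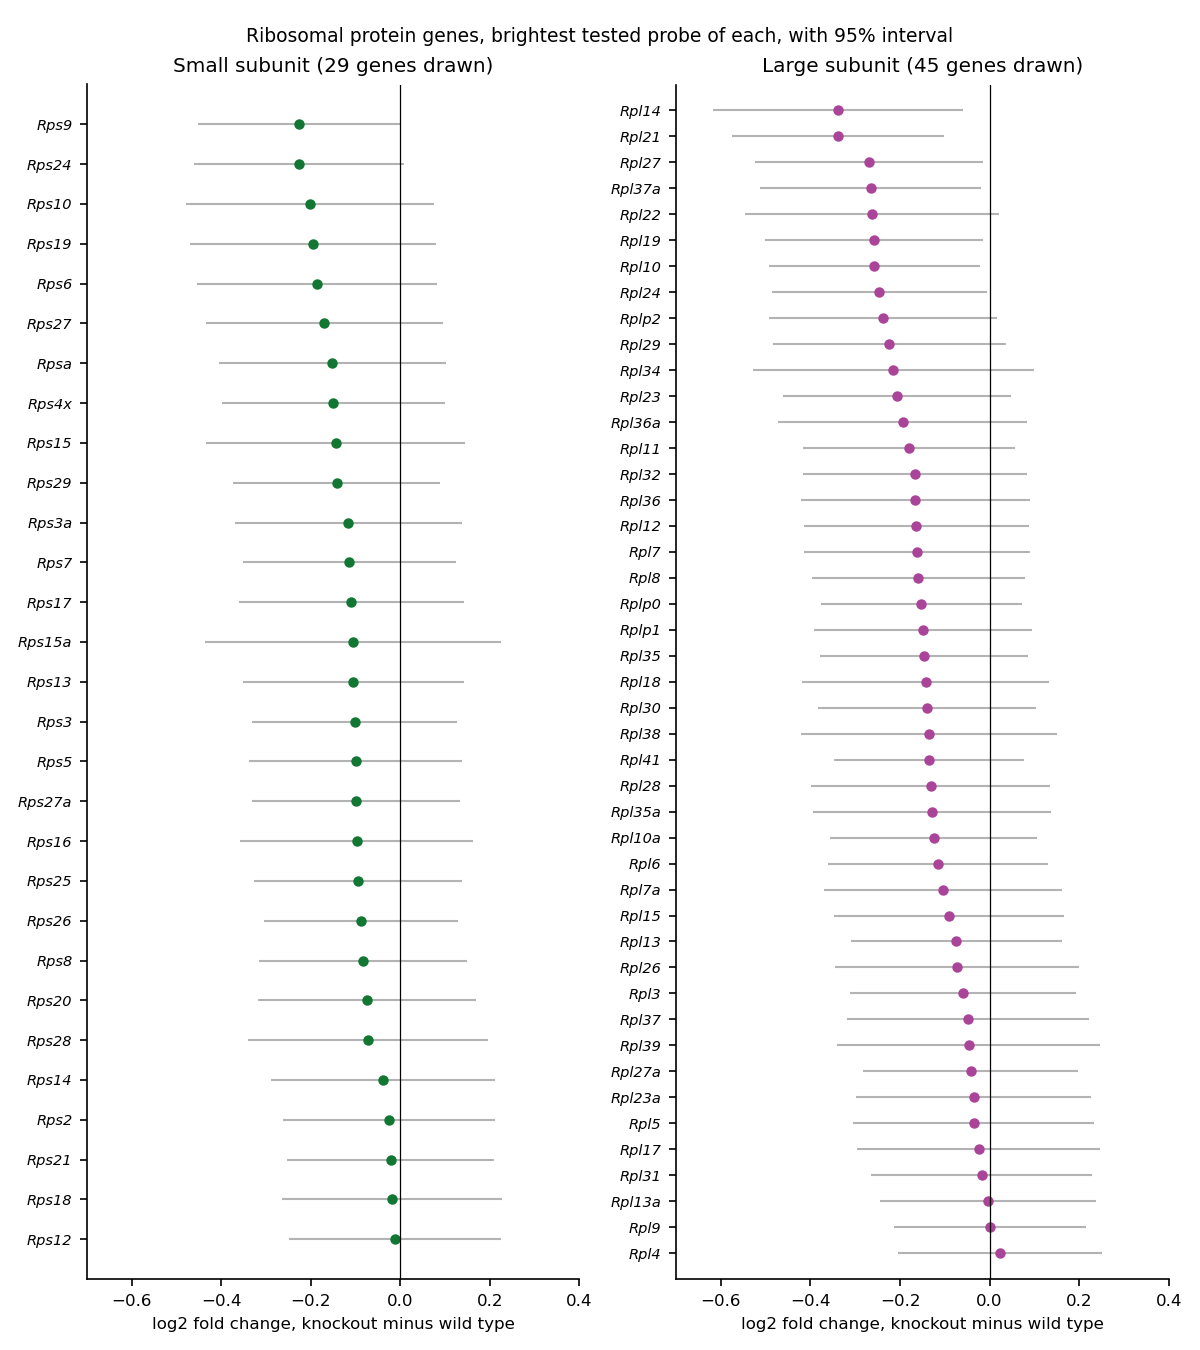
Log2 fold change (knockout minus wild type, x axis) of the representative probe of each ribosomal protein gene, with its 95% limma interval as a line, for 29 of the 30 small subunit genes on the left and 45 of the 46 large subunit genes on the right. Only Rpl4 and Rpl9 have points at or above 0, and most intervals cross 0.

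These differences were small. A total of 69 of the 76 genes lay within 0.25 log2 units of 0, and the median standard error was 0.10. The arrays of 1 group differed little for these genes, with a median SD of 0.08 in the wild type and 0.07 in the knockout. The median SD was 0.22 and 0.13 over all tested probes, and 0.09 and 0.08 over 844 other probes in the same signal range. An unadjusted limma p under 0.05, reached by 21.9% of all tested probes, was found for 1 small subunit gene and 7 large subunit genes, all lower in the knockout. That is 10.5% of the 76 genes, a share near the 11.3% of all tested probes that were lower at the same threshold. No member gene was higher at that threshold, against 10.6% of all tested probes. The knockout arrays lay entirely below the wild type arrays for 6 small subunit genes (20%) and 17 large subunit genes (37%), against 15.4% of all tested probes. No representative probe had the groups apart in the other direction, against 13.6% of all tested probes.

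The genes varied together across the arrays. After each gene was centred on its own mean, the mean of the large subunit genes was 0.10, 0.14 and -0.03 in wild type replicates 1 to 3 and -0.08, 0.00 and -0.13 in the knockout replicates. The small subunit genes read 0.08, 0.12 and -0.03 in the wild type and -0.07, 0.01 and -0.11 in the knockout. Wild type replicates 1 and 2 were therefore the highest arrays for both subunits, while wild type replicate 3 lay below knockout replicate 2, so the groups overlapped. Wild type replicate 2 was the highest of the 6 arrays for 54 of the 76 genes and wild type replicate 1 for 20, leaving 2 genes highest in knockout replicate 2. Knockout replicate 3 was the lowest array for 47 genes, knockout replicate 1 for 18 and wild type replicate 3 for 11. Since 1 offset of an array shifts all of these genes together, their shared sign is not 76 separate observations.

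**Figure D2:**
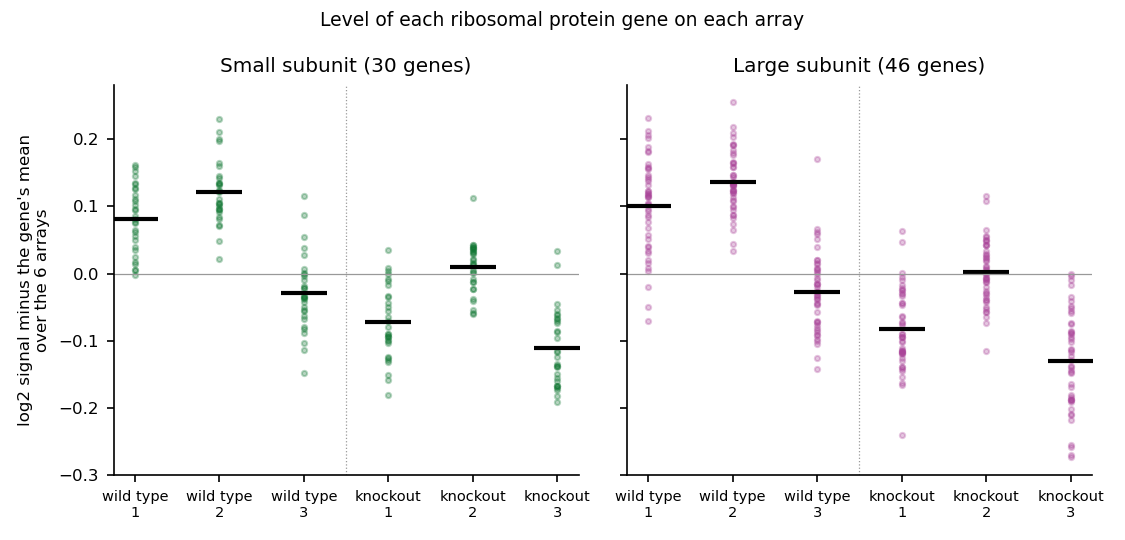
Log2 signal of each ribosomal protein gene minus its own mean over the 6 arrays (y axis), by array (x axis), with 1 point per gene and a black bar at the mean of the subunit. Both subunits show the same order of arrays, and wild type replicate 3 sits below knockout replicate 2.

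The feeder fibroblast markers, centred in the same way, read -0.55, 1.01 and 0.86 in the wild type and -0.63, -0.18 and -0.52 in the knockout. The ES cell markers read 0.07, 0.01 and -0.02 in the wild type and -0.04, 0.03 and -0.04 in the knockout. Wild type replicate 1 was thus among the lowest arrays for feeder markers and among the highest for ribosomal protein genes. Wild type replicate 2 was the highest array for both, and knockout replicate 2 was the highest knockout array for both. The part of feeder RNA in the ribosomal protein values was not tested. In RNA from a mixed culture, fewer cells of a type and less RNA per cell cannot be told apart.

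The count of separated groups changed with single arrays, and leaving an array out can only raise it. Without wild type replicate 3 the groups were apart, lower in the knockout, for 60 genes (78.9%, against 20.8% of all tested probes on the same arrays), and without knockout replicate 2 for 46 (60.5%, against 17.9%). With all arrays the count was 23. The 7 large subunit genes at an unadjusted p under 0.05 became 9 without wild type replicate 3 and 1 or 2 without any other single array. The small subunit gene was lost without any single array.

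The member probes were among the brightest on the array. The dimmest representative probe lay at the 97.5th percentile of mean signal and the median one at the 99.5th, and all 177 tested probes were well above background on all 6 arrays. The remaining member probe was well above background on 1 array and was not tested. Bright probes as a class leaned the same way. The 844 probes noted above lie in the signal range of the representative probes but were dimmer as a class, with their median at the 98th percentile. Their median log2 fold change was -0.09 and 74.9% lay below 0. The knockout arrays lay entirely below the wild type for 28.4% of them, against 30.3% of the ribosomal protein genes.

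**Figure D3:**
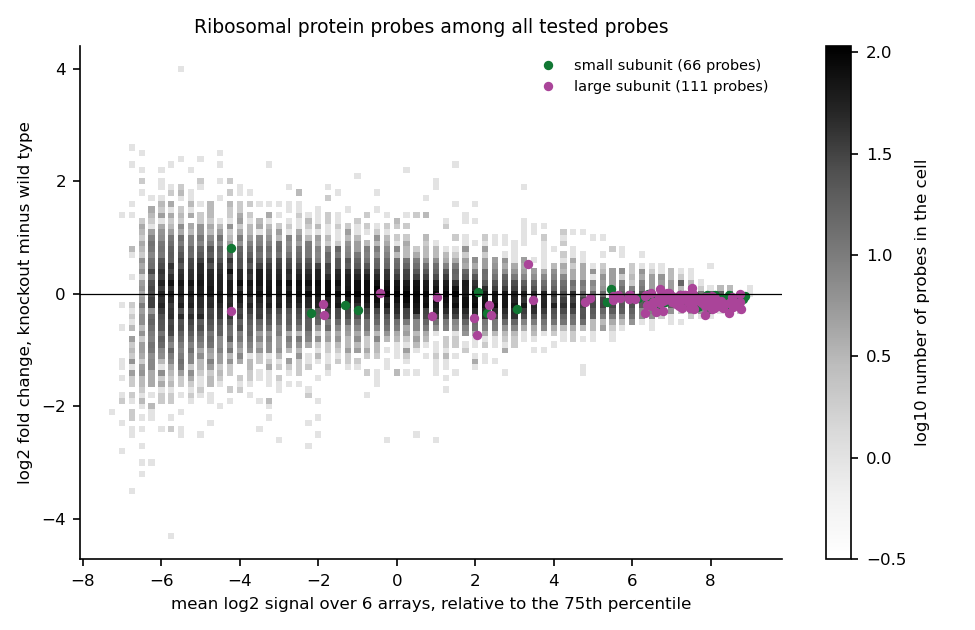
Log2 fold change (knockout minus wild type, y axis) against mean log2 signal over the 6 arrays relative to the 75th percentile (x axis), with all tested probes as grey cells shaded by their number on a log10 scale and the 177 tested ribosomal protein probes as coloured points. Most ribosomal protein probes form a tight group at the bright end just below 0, and the few dim ones are scattered more widely.

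In the small subunit, Rps9 had the most negative estimate. Rps9, a protein of the messenger entry region of the subunit, read 7.77, 7.79 and 7.78 in the wild type and 7.57, 7.61 and 7.47 in the knockout. The knockout arrays all lay below a tight wild type group, with an estimate of -0.23 ± 0.09 in log2 (SE over n = 3 per group, limma adjusted p = 0.227). Rps24, mutated in some patients with Diamond-Blackfan anaemia, read 8.39, 8.54 and 8.43 against 8.21, 8.29 and 8.19, a log2 fold change of -0.23. The groups were apart for Rps24 too, and its limma adjusted p was 0.237. The 4 tested probes of Rps24 ran from -0.23 for this representative to -0.02.

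Rps10, which lies near the messenger entry site and is modified with ubiquitin when ribosomes collide, read 8.68, 8.77 and 8.52 in the wild type and 8.40, 8.57 and 8.40 in the knockout (log2 fold change -0.20). Rps19, the gene most often mutated in Diamond-Blackfan anaemia, read 6.75, 6.90 and 6.65 against 6.52, 6.68 and 6.51 (-0.19). Rps6, the target of S6 kinase, read 7.75, 7.81 and 7.56 against 7.57, 7.55 and 7.44 (-0.19). In each of these 3 genes wild type replicate 3 lay below the highest knockout array, so the groups overlapped. Rpsa, an assembly factor and protein of the small subunit also known as the laminin receptor, had a log2 fold change of -0.15, with the groups overlapping. At the other end Rps12 read 8.54, 8.49 and 8.39 in the wild type and 8.39, 8.50 and 8.48 in the knockout. Its log2 fold change was -0.01 with a 95% interval of -0.25 to 0.22, although its other probe gave -0.20.

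In the large subunit, Rpl14 and Rpl21 had the most negative estimates. Rpl14, a protein that bacterial ribosomes lack, read 8.69, 8.72 and 8.48 in the wild type and 8.22, 8.40 and 8.25 in the knockout. This is a log2 fold change of -0.34 with an SE of 0.11 (n = 3 per group), or -20.9% in signal, with a limma adjusted p of 0.182. The other probes of Rpl14 gave -0.37 and -0.43. Rpl21, also without a bacterial counterpart, read 6.52, 6.45 and 6.49 against 6.20, 6.20 and 6.04, a log2 fold change of -0.34 ± 0.10 with a limma adjusted p of 0.149. For both genes the lowest wild type array lay above the highest knockout array.

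Next came 6 genes between -0.27 and -0.25, all with the groups apart. Rpl27 read 8.25, 8.23 and 8.05 in the wild type and 7.90, 7.98 and 7.84 in the knockout. Rpl37a, a small zinc-binding protein, read 8.93, 9.01 and 8.83 against 8.63, 8.74 and 8.60. Rpl19, whose long helix reaches across to the small subunit, read 7.62, 7.67 and 7.53 against 7.36, 7.42 and 7.26. Of these, wild type replicate 3 was the lowest wild type array each time, and still lay above the knockout.

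Rpl10, which is among the last proteins added to the large subunit in the cytoplasm, read 8.52, 8.41 and 8.37 in the wild type and 8.18, 8.23 and 8.12 in the knockout, a log2 fold change of -0.26 with a limma adjusted p of 0.207. Rpl24, which forms a bridge between the subunits, had a log2 fold change of -0.25. Rpl22, known for a role in T cell development, read 7.78, 7.79 and 7.59 against 7.45, 7.59 and 7.33, a log2 fold change of -0.26. The highest knockout array of Rpl22 nearly touched the lowest wild type array, and its limma adjusted p was 0.249.

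The stalk proteins recruit the translation factors that hydrolyse GTP. Rplp0, the base of the stalk, read 8.83, 8.87 and 8.77 in the wild type and 8.62, 8.71 and 8.69 in the knockout, a log2 fold change of -0.15. Rplp1 gave -0.15 and Rplp2 -0.24, with 8.75, 8.76 and 8.55 against 8.40, 8.50 and 8.44 for the latter. The groups were apart for Rplp0 and Rplp2 and overlapped for Rplp1, and the limma adjusted p-values were 0.363, 0.245 and 0.401.

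Rpl5 and Rpl11 travel with the 5S ribosomal RNA and, outside the ribosome, bind Mdm2, the ubiquitin ligase of p53. Rpl5 read 6.81, 6.93 and 6.70 in the wild type and 6.86, 6.80 and 6.68 in the knockout, a log2 fold change of -0.04 with a 95% interval of -0.30 to 0.23. Rpl11 read 8.48, 8.49 and 8.36 against 8.24, 8.33 and 8.21, a log2 fold change of -0.18, although its other probes both gave -0.01. The groups overlapped for Rpl5 and were apart for the representative probe of Rpl11. Rpl38, whose loss in mice alters the translation of Hox messengers, had a log2 fold change of -0.14 with overlapping groups.

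The large subunit also held the genes nearest to 0 or above it. Rpl4, which lines the exit tunnel, read 6.95, 6.99 and 6.86 in the wild type and 6.933, 6.996 and 6.932 in the knockout, a log2 fold change of 0.02 with a 95% interval of -0.20 to 0.25. Rpl9, a protein near the factor-binding centre, read 8.74, 8.79 and 8.75 against 8.74, 8.79 and 8.76, a log2 fold change of 0.00. Values of both groups were interleaved in both genes. Rpl13a, which is also released from ribosomes to silence messengers of inflammation, had a log2 fold change of -0.0034, with 7.49, 7.64 and 7.55 against 7.60, 7.59 and 7.47. The other probes of Rpl13a gave -0.07 and -0.14, and the other probe of Rpl9 gave -0.13.

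The start sites of 6 genes that carry a pyrimidine motif are shown because their estimates span most of the range, from the negative end to above 0. RefSeq held a promoter entry, in assembly GRCm38.p6, for 56 of the 76 genes. Each line gives 30 bases before the annotated start and 20 from it on, read 5′ to 3′ along the gene's strand, with the motif CTTTC, a common core of the pyrimidine tract, in capitals.
Rplp2, chr7:141447621-141447670, plus strand: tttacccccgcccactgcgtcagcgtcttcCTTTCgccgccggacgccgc
Rps10, chr17:27635225-27635274, minus strand: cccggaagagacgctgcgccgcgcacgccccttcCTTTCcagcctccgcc
Rps27, chr3:90213629-90213678, minus strand: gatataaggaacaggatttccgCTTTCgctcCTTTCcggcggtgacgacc
Rpl5, chr5:107900498-107900547, plus strand: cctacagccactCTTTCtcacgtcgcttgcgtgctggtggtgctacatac
Rpl13a, chr7:45128726-45128775, minus strand: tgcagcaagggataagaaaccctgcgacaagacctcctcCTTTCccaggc
Rpl4, chr9:64173357-64173406, plus strand: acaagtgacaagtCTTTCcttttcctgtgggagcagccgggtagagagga
The motif and the span of fold changes are shared or set by choice, and in Rpl5 and Rpl4 the motif lies before the annotated start. The log2 fold changes were -0.24 for Rplp2, -0.20 for Rps10, -0.17 for Rps27, -0.04 for Rpl5, -0.0034 for Rpl13a and 0.02 for Rpl4.

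A gene was counted for a motif if any of its promoter entries held it. CTTTC on the sense strand within 20 bases of the start was found in 18 of the 56 member genes (32.1%), against 6.4% of all 27025 genes with an entry. Member genes with it had a median log2 fold change of -0.12 and those without it -0.14. CCGGAA, the core bound by ETS factors, was sought on either strand from 100 bases before to 50 after the start. It was found in 25 (44.6%), against 11.8% of all genes, with medians of -0.12 and -0.13. CACGTG, the E-box bound by Myc, on either strand anywhere in the entry of 250 bases before to 50 after the start, was found in 6 of the 56, against 7.2% of entries, with medians of -0.21 and -0.12. CAAGATGG, a YY1 motif, was sought on either strand from 100 bases before to 50 after the start. It was found in 3 (5.4%), against 1.5% of all genes, with medians of -0.10 and -0.14. CTTTC and CCGGAA were thus more frequent among member genes than among all genes, while the fold changes of members with and without them lay close together. A match of letters is a description and not a bound site.

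Several genes were read by more than 1 probe. Of the 55 genes with 2 or more tested probes, 45 had all probes below 0 and 10 had probes on both sides of 0. Over all 177 tested probes, 165 lay below 0 and the range ran from -0.73 to 0.81. The groups were apart for 58 probes lower in the knockout (32.8%, against 15.4% of all tested probes) and for 1 higher (against 13.6%). The dim probes had the wider spread. The 21 probes under 5 log2 units above the 75th percentile had a median of -0.20, with 2 higher and 5 lower at an unadjusted limma p under 0.05, where 10.6% and 11.3% of all tested probes stood. The 156 brighter probes had a median of -0.12, with 0 higher and 11 lower.

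The probes that differ most from their gene's representative are shown by their first 30 bases, written 5′ to 3′ as in the array design, since they are distinct sequences under 1 gene name. Positions are those the scanner files give in mouse build mm9, for the whole probe.
Rpl22 representative A_55_P2015989, chr4:151706515-151706574: ggaggaagacgaggattaggacacattggt
Rpl22 probe A_52_P391718, chr4:151708012-151708071: gctgtaaacaacattaaccctgggttgatt
Rps15a representative A_55_P2109943, chr7:125252644-125252703: attgtgctgacaacctaggctggcatcatg
Rps15a probe A_52_P491433, chr7:125248322-125248381: gtgagtcagcagaaagtatagatagcaaag
Rpl30 representative A_55_P1952475, chr15:34371013-34371072: ctatcactacagtggcaataatattgaact
Rpl30 probe A_66_P125437, chr15:34372831-34372890: tagctggtgtttgacgctctggattataat
The divergent probes start 1497, 4322 and 1818 bases from the representative probe of Rpl22, Rps15a and Rpl30. Whether they lie in an exon, an intron or a UTR was not analysed here.

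Probe A_52_P391718 of Rpl22 read 2.94, 3.47 and 2.81 in the wild type and 3.40, 3.65 and 3.74 in the knockout, a difference of 0.52 with an SE of 0.20 on the log2 scale (n = 3 per group, limma adjusted p = 0.211), opposite in sign to the representative probe at -0.26. Wild type replicate 2 exceeded knockout replicate 1, so the groups overlapped. Probe A_52_P491433 of Rps15a, which binds the 18S ribosomal RNA, read -4.54, -4.52 and -4.80 against -4.15, -4.04 and -3.24. All knockout arrays lay above all wild type arrays, with a log2 fold change of 0.81 ± 0.26 and a limma adjusted p of 0.167, while the other probes of Rps15a gave -0.11 and -0.12. Probe A_66_P125437 of Rpl30, whose yeast counterpart regulates the splicing of its own transcript, read 2.61, 2.07 and 2.58 against 1.94, 1.60 and 1.52. Its groups did not overlap, the log2 fold change was -0.73 ± 0.19 and the limma adjusted p 0.134, and the other probes of Rpl30 gave -0.14 and -0.15.

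Probes also differed in 3 further genes. For Rpl31, a protein near the mouth of the exit tunnel, the 4 bright probes lay between -0.11 and -0.02 and the dim probe gave -0.39. For Rps27a, which is made as a fusion with ubiquitin, the bright probes gave -0.10 and -0.05 and the dim probe -0.35. For Rpsa the 4 probes, from the brightest to the dimmest, gave -0.15, -0.11, 0.08 and -0.29. None of these probes passed the test.

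**Figure D4:**
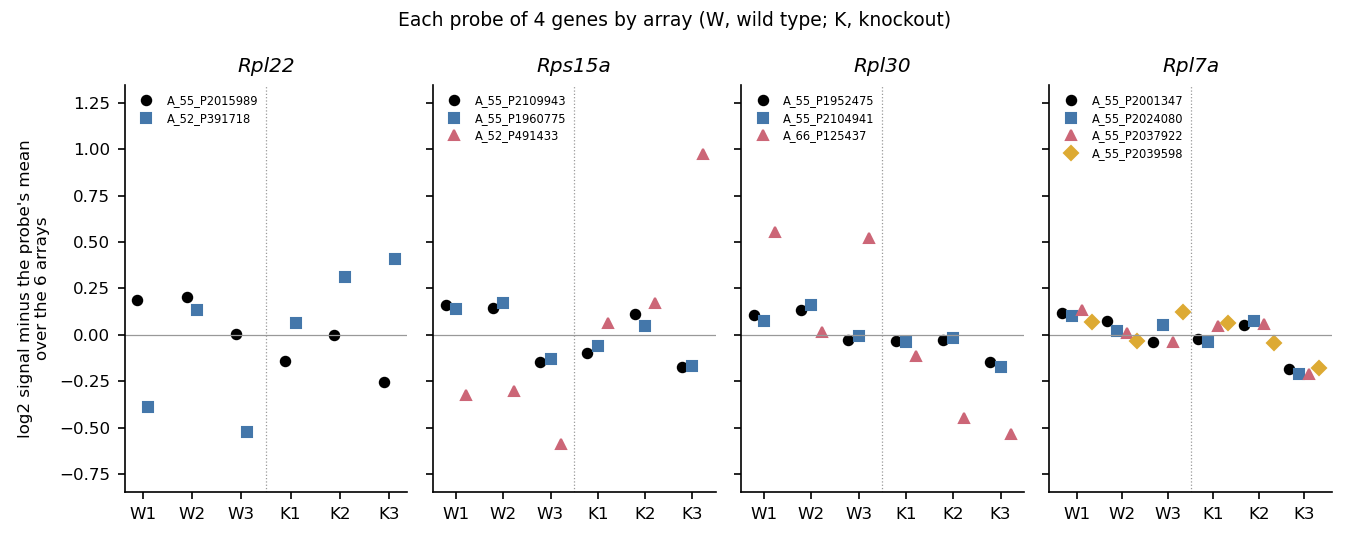
Log2 signal of each tested probe minus its own mean over the 6 arrays (y axis), by array (x axis; W, wild type; K, knockout; the digit is the replicate), for Rpl22, Rps15a, Rpl30 and Rpl7a, with 1 symbol per probe. In the first 3 genes 1 probe departs from the others, while the 4 probes of Rpl7a stay close together and all read lowest in knockout replicate 3.

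Near-identical copies limit what a probe name means, because ribosomal protein genes have many processed pseudogenes. Of the member probes, 24 probes of 14 genes were placed by the scanner files on a chromosome other than that of the gene in RefSeq. All 4 probes of Rps27, a gene on chromosome 3, were placed on chromosome 9, and gave -0.17 to -0.27. The 24 probes had a median log2 fold change of -0.16, all below 0. Another 35 probes of 31 genes spanned an intron in the given positions, and had a median of -0.09 with 33 below 0. A processed copy lacks the intron but keeps the joined exons, so these probes cannot separate a gene from such a copy. The 118 remaining tested probes, in 1 piece on the gene's own chromosome except 1 Rps3 probe with no position, had a median of -0.12. All 3 classes had most of their probes below 0.

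Rpl7a, a large subunit protein that also hosts small nucleolar RNAs in its introns, shows the same problem in its sequences. The following probes were given the same positions, chr2:26768759-26768818 in mm9, and capitals mark the bases that differ between them.
A_55_P2001347: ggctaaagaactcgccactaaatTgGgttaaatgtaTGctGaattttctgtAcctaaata
A_55_P2037922: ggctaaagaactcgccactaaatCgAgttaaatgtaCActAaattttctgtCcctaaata
They differ at 6 of 60 bases, which are T24C, G26A, T37C, G38A, G41A and A52C from the first probe to the second, counted from 1 at the 5′ end. The first gave a log2 fold change of -0.10 and the second -0.07, so the difference in sequence came with nearly the same reading. Which of the copies each probe reads was not tested.

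Of the 7 other gene lists of the translation machinery, 6 had medians further below 0 than either cytosolic subunit, although single genes lay above 0, and no gene of these lists passed the test with all arrays. The shares of all tested probes to read their counts against are 11.3% lower and 10.6% higher at an unadjusted limma p under 0.05, and 15.4% with the knockout arrays entirely below the wild type. Mitochondrial ribosomal proteins, which serve the separate ribosome of mitochondria, had 74 of 76 genes below 0 and a median of -0.29, with 36 lower and 0 higher at an unadjusted limma p under 0.05. Mrps25 read 4.30, 4.15 and 4.32 in the wild type and 3.86, 3.68 and 3.57 in the knockout, a log2 fold change of -0.55 with a limma adjusted p of 0.0993. The groups were apart for Mrps25, and lower in the knockout for 48 of the 76 genes or 63.2%. Mrpl55 gave -0.50 and Mrpl47 -0.43. The count of 36 became 21 and 15 without wild type replicates 1 and 3, and 33, 11 and 10 without knockout replicates 1, 2 and 3. In the same fits 20.5%, 15.5%, 18.3%, 12.4% and 12.1% of all tested probes stood at that threshold in either direction. Without wild type replicate 2, 6 of the 76 genes passed the adjusted test. That fit also had the highest whole-array counts past the adjusted test of the fits with 1 array left out. Those counts are given in the last section, and the 6 genes are not read as particular to this list.

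Ribosome biogenesis factors had 40 of 44 genes below 0 and a median of -0.30, with 17 lower and 1 higher at the unadjusted threshold. Heatr1, needed for early processing of the ribosomal RNA precursor, gave -0.69, the nucleolar protein Nolc1 -0.67 and Wdr12, a partner of Pes1 and Bop1, -0.51. RNA polymerase I and its factors, which make that precursor, had 13 of 14 genes below 0 and a median of -0.28, with 3 lower and 1 higher at the threshold. Polr1e gave -0.58, Polr1d -0.47 and Znrd1 -0.37. Without wild type replicate 2 the counts of lower genes were 32 for biogenesis and 9 for RNA polymerase I, with 8 and 3 past the adjusted test. In that fit 33.1% of all tested probes stood at the unadjusted threshold in either direction. Its whole-array counts past the adjusted test, given in the last section, were also the highest of the fits with 1 array left out. The 8 and 3 genes are therefore not read as particular to these lists. Without wild type replicate 1 or 3 or knockout replicate 2 or 3 the counts of lower genes were 5 or 6 and 1. Without knockout replicate 1 they stayed at 17 and 3, where 18.3% of all tested probes stood at the threshold in either direction. None of these genes passed the adjusted test in any of these fits. The centred means of both lists were low in wild type replicate 2, at -0.11 and -0.15, where ribosomal protein genes were at their highest.

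Translation factors had 28 of 33 genes below 0 and a median of -0.24, with 11 lower and 0 higher at the threshold. Eif3e and Eif3d, subunits of the initiation factor that binds the small subunit, gave -0.47 and -0.42, and Btf3, part of the nascent chain complex, gave -0.40. The count of 11 became 3 and 6 without wild type replicates 1 and 3, and 9, 4 and 3 without knockout replicates 1, 2 and 3. Without wild type replicate 2, 3 of the 33 genes passed the adjusted test, in the same fit with the highest whole-array counts past that test. The medians of these 3 lists stayed below 0 under quantile normalization, at -0.21 for mitochondrial ribosomal proteins, -0.20 for biogenesis and -0.14 for translation factors. Regulators of ribosomal protein output had a median of -0.01, with 11 of 19 below 0 and 2 higher and 2 lower at the threshold, and the median was 0.05 under quantile normalization. Mlst8, a subunit of the mTOR complexes, and Rheb, an activator of mTOR, gave 0.32 and 0.27, and Larp1, which binds the pyrimidine tract, gave -0.47.

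**Figure D5:**
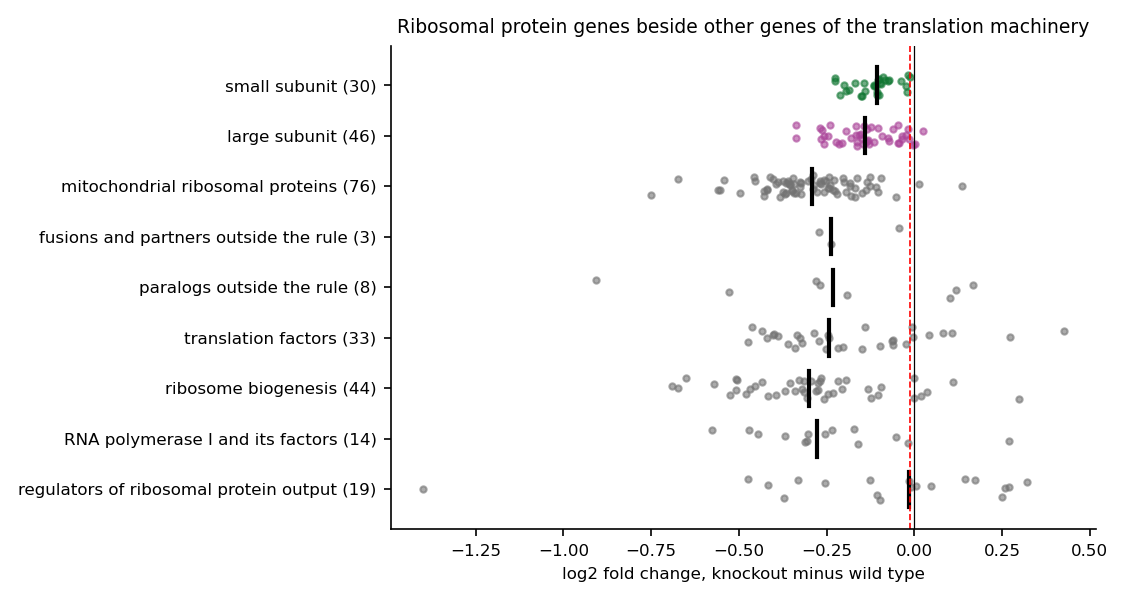
Log2 fold change (knockout minus wild type, x axis) of each gene by list (y axis, with the number of genes tested), with a black bar at the list's median and a dashed line at the median of all tested probes. The lists of mitochondrial ribosomal proteins, biogenesis factors and RNA polymerase I have medians from -0.30 to -0.28, and the cytosolic subunits have medians of -0.11 and -0.14 with a narrower range than those lists.

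Some proteins of the ribosome carry names outside the rule. Fau, whose product carries the small subunit protein S30, read 8.56, 8.55 and 8.47 in the wild type and 8.21, 8.31 and 8.25 in the knockout, a log2 fold change of -0.27 with the groups apart. Gnb2l1, the scaffold protein RACK1 of the small subunit, gave -0.04. Of the 8 paralogs tested, 5 lay below 0. Rpl10l gave -0.91, Rps4y2 -0.53, Rpl36al -0.28, Rps27l -0.27 and Rpl22l1 -0.19, while Rpl3l gave 0.17, Rpl39l 0.12 and Rpl7l1 0.10. Rpl10l read 3.81, 3.51 and 3.24 against 2.99, 2.69 and 2.16, groups that did not overlap, with a limma adjusted p of 0.141. Probes of paralogs can share sequence with their parent genes, which was not tested.

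The size of the shift in the ribosomal protein genes depended on the scaling of the arrays. Under quantile normalization the medians were -0.03 for the small and -0.05 for the large subunit, with 50 of 76 genes below 0. The knockout arrays then lay entirely below the wild type for 21 genes (27.6%, against 13.8% of all tested probes). They lay entirely above it for 7 genes. Over all tested probes the share entirely above was 13.6% with the main scaling, and is not given here for quantile normalization. Under normexp background correction followed by quantile normalization the medians were -0.03 and -0.04, with 56 genes below 0. With each array shifted to the median of the tested probes all 76 genes lay below 0, while the median of all tested probes was -0.07. No ribosomal protein gene reached an adjusted p under 0.05 under any of the settings tried.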

How the data were processed

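Single-colour Agilent arrays of 3 wild type and 3 Zscan5b knockout ES cell samples were analysed. Per the file headers the authors scanned and extracted spot intensity values with Agilent Feature Extraction 10.7.3.1, although 10.3.1.1 is the version in the submitters' processing notes. The deposited processed signal (an intensity, background-subtracted per the file headers) was used. The authors' deposited log2 table correlated with the gene-centred scanner values at r of 0.979 to 0.992, with column medians of -0.07 to 0.03, and served as an alternative. Its centring was read from this match, since no source used here states it.

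Control and outlier-flagged spots were dropped, log2 signals were set relative to each array's 75th percentile, and spots of a probe were averaged. Probes well above background on at least 3 of 6 arrays were tested with limma 3.58.1 in R 4.3.3 (lmFit and eBayes, two-sided, Benjamini-Hochberg, threshold 0.05). The number of arrays limits the precision.

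Genes are represented by the tested probe of highest mean. Named genes are, per subunit, the 6 largest estimates in each direction and the 4 smallest p-values, the 6 genes whose probes differ most, genes with a set role, and up to 3 of each other list; other members are named where a sentence counts or shows them. Some genes are counted but not reported here by name. Members and lists were chosen with earlier results of these data known. Symbols of all 76 genes matched RefSeq. Promoters are RefSeq's (GRCm38.p6) and probe positions are mm9, per the file headers. Alternatives were other scalings, filters, variance priors, array weights, a replicate block, probe summaries and leaving out each array. The normexp alternative was followed by quantile normalization. Correlations of same-numbered deviations were 0.162, 0.232 and -0.144, so the numbers were not taken to pair samples.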

Additional observations from a re-analysis of the deposited data

How the results depend on the processing

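Under every setting tried, 0 ribosomal protein genes reached an adjusted p under 0.05, and the medians of both subunits stayed below 0. The count over all tested probes was far less stable. It was 33 higher and 91 lower at an adjusted p under 0.05, became 54 and 177 with arrays shifted to the median, 50 higher under quantile normalization, and 318 and 324 with array weights. It was 0 in both directions under normexp background correction, a setting that was also quantile normalized, and without the filter. It was also 0 with probes required above background on all arrays, with a trended and robust variance prior, and with the replicate block. Leaving out single arrays gave 0 to 1409 higher and 0 to 1148 lower. The high ends were without wild type replicate 2, among 26649 probes tested in that fit. The causes were not tested.

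The small subunit median of -0.11 became -0.026 under quantile normalization and -0.028 under normexp, and the large subunit median of -0.14 became -0.046 and -0.041. Large subunit genes lower at an unadjusted limma p under 0.05 numbered 7, and became 3 under quantile normalization, 4 under normexp, 2 without the filter, 18 with the trended and robust prior and 1 with array weights. Leaving out single arrays gave 1 to 9. In the order of these settings, 21.9%, 20.7%, 21%, 16.5%, 23.3% and 32.3% of all tested probes stood at that threshold in either direction. With single arrays left out that share was 12.1% to 33.1%. The small subunit count of 1 became 3 with the median shift, 5 with the trended and robust prior, and 0 under quantile normalization, normexp, no filter, array weights and every leave-one-out fit (0 to 0). Counted over every tested probe, 1 probe of each subunit was higher and 15 large subunit probes were lower, against 10.6% and 11.3% of all tested probes. Groups were apart, lower in the knockout, for 23 genes (30.3%, against 15.4% of all tested probes) and for 58 probes counted singly (32.8%, against 15.4%). With the median shift they were apart for 48 genes (63.2%, against 18.7%). When an array was left out they were apart for 23 to 60 genes (30.3% to 78.9%, against 17.6% to 26.9%). Groups apart in the other direction numbered 7 under quantile normalization, 5 under normexp and 1 over every probe. Those lower in the knockout numbered 21, 19 and 58 in the same order. The share of all tested probes apart in the other direction was 13.6% in the main fit. It is not given here for quantile normalization or normexp.

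With the replicate block the unadjusted counts were 0 small and 2 large subunit genes. The numbers were not shown to pair the samples, which share only a number.

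Single genes near 0 changed sign. Rpl4 became -0.031 and Rpl9 -0.054 with the median shift. Rpl31 became 0.058, Rps27a 0.0047 and Rpl5 0.026 under quantile normalization. Under normexp Rpl31 became 0.090 and Rpl5 0.062, and with array weights Rpl31 became 0.039, Rpl5 0.0045 and Rps15a 0.0050. The mean over all probes of a gene gave -0.065 for Rpl9, 0.13 for Rpl22 and 0.19 for Rps15a. Leaving out single arrays gave -0.067 to 0.035 for Rpl31, -0.014 to 0.051 for Rpl4, -0.094 to 0.025 for Rpl5 and -0.013 to 0.018 for Rpl9.

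The precision is limited by 3 arrays per group, each group on a slide of its own.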
